A study of Mus musculus with 34 samples.

Results

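In a study of mouse skeletal muscle, 10 genes were followed through every library: 9 regulators of the oxidative program and Mb, which encodes myoglobin. The members were the rows whose Ensembl identifiers map to Ppargc1a, Ppargc1b, Esrra, Esrrg, Nrf1, Gabpa, Tfam, Tfb2m, Ppara and Mb, which are 10 of the 46071 identifiers counted. All 10 passed the filter on low counts, which kept 13646 genes for testing. RNA came from powdered quadriceps and gastrocnemius muscle mixed together, in 34 libraries of 8 groups. In MIRKO mice (4 libraries) the muscle insulin receptor was deleted, and floxed IRlox littermates (3) were the controls. In MIGF1RKO mice (5) it was the IGF-1 receptor, with IGFRlox (4) as controls. In MIGIRKO mice (6) both receptors were deleted, with IRIGFRlox (3) as controls. In QKO mice (7) the deletion took both receptors and FoxO1, FoxO3 and FoxO4, transcription factors that insulin signalling keeps out of the nucleus, with Qlox (2) as controls. Acta1-Cre, driven by the promoter of skeletal muscle actin, made the MIRKO, MIGIRKO and QKO deletions. The driver of the MIGF1RKO deletion is not given in the sources used here, nor are the ages or the deleted exons. Mice were male unless the study stated otherwise, on a mixed background, with each line kept as its own colony. By the submitters' account, IRIGFRlox and MIGIRKO were heterozygous for the mitochondrial gene Nnt, and IRlox, MIRKO, Qlox and QKO mixed homozygotes and heterozygotes. The labels do not tie each library to a named animal, so p-values measure the spread between libraries.

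Oxidative muscle fibres carry many mitochondria and much myoglobin, the haem protein that stores oxygen in the fibre. The coactivators PGC-1α (Ppargc1a) and PGC-1β (Ppargc1b) dock on nuclear receptors such as ERRα (Esrra), ERRγ (Esrrg) and PPARα (Ppara) and on the nuclear respiratory factors NRF1 (Nrf1) and GABPα (Gabpa). Together these switch on nuclear genes of respiration and fat oxidation, and they also raise Tfam and Tfb2m, the factors that start transcription of mitochondrial DNA.

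Total counts ran from 1499025 to 7581198 per library. The targeted Insr was lower in MIRKO, MIGIRKO and QKO (adjusted p = 1.9e-08, 2.0e-09 and 2.7e-10 by edgeR's quasi-likelihood test) and Igf1r (0.027), Foxo1 and Foxo4 were lower in QKO. Foxo4, which was not deleted in MIGIRKO, was also called lower there, with overlap (log2 change -0.73 ± 0.17, adjusted p = 0.0010). Igf1r in MIGF1RKO was below its controls without overlap but did not pass (adjusted p = 0.10). Igf1r in MIGIRKO (0.99) and Foxo3 in QKO (0.71) did not pass and overlapped their controls, so whole-gene counts do not show these deletions. By the correlation of log2 CPM across genes, which are not independent replicates, 14 of 34 libraries were nearest to a library of another group. No MIRKO library was nearest to its own group: MIRKO 1 and MIRKO 3 were nearest to MIGIRKO 6, and MIRKO 2 to MIGF1RKO 4. MIGIRKO 1 and MIGIRKO 3 were nearest to MIRKO 4. The library labelled MIRKO 4, with the lowest Mb of its group, was nearest to MIGIRKO 3 (r = 0.981). The library labelled MIGIRKO 6, with the highest Mb of its group, was nearest to MIRKO 3 (r = 0.973). Whether these labels were exchanged was not tested. Both stay in the groups of their labels, and the results that rest on them are given also with this pair left out. Of 12 defining markers of skeletal muscle fibres, Pygm had only 29 counts over all libraries, and the other 11 were abundant. Their sum was 190800 to 211600 counts per 1000000 counts of the library (CPM, with library totals scaled by trimmed means) in IRIGFRlox and 64430 to 109800 in MIGIRKO. IRlox libraries had 173000 to 200600 and MIRKO libraries 88190 to 157800. The range was 179100 to 186800 in Qlox and 118800 to 223800 in QKO. In bulk RNA, fewer cells of a type and less RNA per cell cannot be told apart.

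Promoter sequences were read for the 3 members that fell in a knockout, Mb, Esrra and Tfb2m, because they share a direction in MIGIRKO. RefSeq windows (GRCm38.p6) of 250 bases before to 50 after a start site were found for 9 of the 10 members, 15 windows among 32851 of the same length. They were searched on both strands for AAGGTCA, the ERR half-site, GCATGCGC, the core bound by NRF1, CCGGAAG, the ETS site bound by GABPα, GTAAACA, a FoxO site, and the frame of a MEF2 site, CTA and TAG with 4 bases of any kind between them. None of these motifs overlapped another in a member's window other than GCATGCGC with its own reverse complement in Ppara. The 250 bases before the start are shown 5′ to 3′ on the minus strand for Tfb2m (chr1:179546277-179546526), for the most downstream of 3 Mb starts (chr15:77022728-77022977) and for Esrra (chr19:6921809-6922058). Capitals mark GCATGCGC.

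Mb: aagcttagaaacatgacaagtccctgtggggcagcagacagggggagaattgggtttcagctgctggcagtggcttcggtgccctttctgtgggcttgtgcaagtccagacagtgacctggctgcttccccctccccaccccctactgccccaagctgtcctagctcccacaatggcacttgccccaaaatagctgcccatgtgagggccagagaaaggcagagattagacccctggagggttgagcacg
Esrra: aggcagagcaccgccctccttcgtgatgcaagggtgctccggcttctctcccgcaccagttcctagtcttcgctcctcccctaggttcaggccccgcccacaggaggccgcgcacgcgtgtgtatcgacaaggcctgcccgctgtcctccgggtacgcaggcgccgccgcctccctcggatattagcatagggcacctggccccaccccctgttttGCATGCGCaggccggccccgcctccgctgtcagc
Tfb2m: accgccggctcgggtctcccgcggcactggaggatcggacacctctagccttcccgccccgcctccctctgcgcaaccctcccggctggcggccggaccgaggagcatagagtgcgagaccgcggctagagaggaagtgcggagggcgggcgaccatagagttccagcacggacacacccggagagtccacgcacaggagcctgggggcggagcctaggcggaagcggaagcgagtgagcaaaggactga

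The Esrra window held GCATGCGC 34 to 27 bases before the start. Tfb2m had none of the 5 motifs before its start, but 30 bases just after it (chr1:179546237-179546266, minus strand, bases 11 to 40 after the start) held GCATGCGC and the reverse complement of GTAAACA, both in capitals here because these were the letters searched.

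Tfb2m, after the start: ttcGCATGCGCcattcgtaaTGTTTACttc

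GCATGCGC was in 2.71% and GTAAACA in 3.65% of all windows. The 3 Mb windows held none of the 5 motifs. CCGGAAG, in 8.86% of all windows, was in those of Tfam (47 to 41 bases before the start) and Gabpa (93 to 87 before). GCATGCGC was also in the Ppara window, and the MEF2 frame (3.69% of all windows) was in 1 Esrrg window. AAGGTCA, in 4.72% of all windows, was in no member's window. A match describes letters in a window and was not tested as a binding site.

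The 4 knockouts differed in how many members were called, a count that also depends on the group sizes, which differed. Mb alone fell in MIRKO, 1 of 10 members, where 1.25% of all tested genes were called, 0.381% higher and 0.865% lower. Mb, Esrra and Tfb2m fell in MIGIRKO, 3 of 10, where 33.7% of all tested genes were called and 16.7% were called lower, although Esrra and Tfb2m were not lower relative to the fibre markers. A count of 3 in 10 is near the share of all tested genes called, and above the share called lower. The share called lower depends on the scaling: 50.4% of the MIGIRKO calls were higher, but 90.2% when only library totals scaled the counts, where Esrrg was called higher and Mb and Esrra lower. In MIRKO these shares were 30.6% and 82.1%, and Mb was lower with both. No member was called in MIGF1RKO (0.616% of tested genes called; 42.9% of the calls higher, against 57.6% on unadjusted totals) or in QKO (0.506% called). With DESeq2 the counts for MIGF1RKO and QKO were also 0, and no member had an unadjusted p under 0.05 there in edgeR's test. The test between the 4 floxed groups also called no member (0.264% of tested genes called), with Ppargc1b the nearest at an adjusted p of 0.29. In the plot of changes from controls, Mb stands apart from the regulators in both MIRKO and MIGIRKO.

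**Figure D1:**
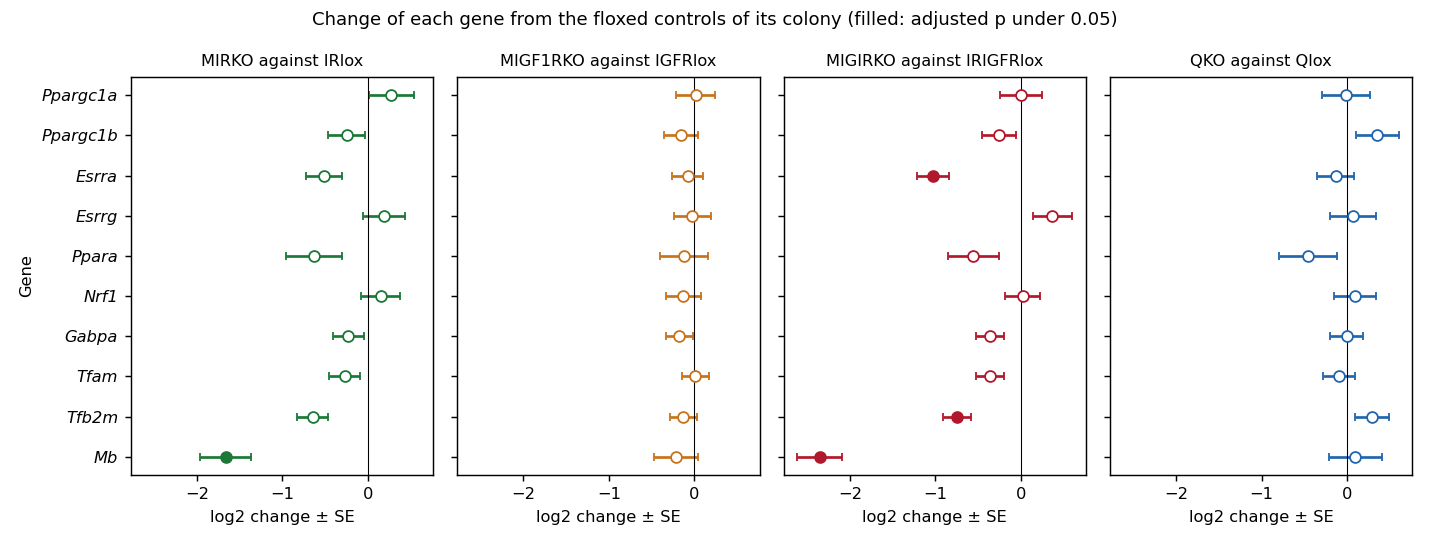
Log2 change ± SE of each of the 10 genes (rows) from the floxed controls of its colony, in MIRKO, MIGF1RKO, MIGIRKO and QKO (panels), from edgeR's quasi-likelihood fit. Filled points passed an adjusted p of 0.05: Mb at -1.67 in MIRKO and -2.35 in MIGIRKO, and Esrra at -1.03 and Tfb2m at -0.75 in MIGIRKO, which lay at 0.08 and 0.34 per summed fibre marker CPM.

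Counts of members without overlap between the groups were closer to each other in MIRKO and MIGIRKO than the counts of calls. In MIRKO, 3 members (Mb, Esrra and Tfb2m) were lower in every knockout library than in any control library, as were 8.23% of tested genes (7.88% were higher without overlap). In MIGIRKO the count was 4 (the same 3 and Tfam), against 14.8% of tested genes lower and 15.2% higher. On the CPM scale, no member was separated upward in either comparison, or in either direction in MIGF1RKO (2.45% of tested genes higher, 2.69% lower) or QKO (3.91% higher, 5.86% lower). Per summed fibre marker, Esrra (log2 difference 0.12) and Tfb2m (-0.0043) overlapped their controls in MIRKO. On that scale Tfam (0.345) and Esrrg (0.785) lay above the controls in every MIRKO library, and Mb (-1.04) lay below them. The share of all tested genes separated on that scale was not computed. A gene with a flat CPM rises on it where the fibre markers fell. Ppargc1a in MIGIRKO, for instance, changed by 0.003 in CPM and by 1.07 per summed fibre marker.

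Levels between genes were compared per kilobase of exon. By the median over all libraries, Mb stood at 596 CPM per kb and ranked 56 of the 13646 tested genes. The regulators lay far lower, from Tfam (14.2 CPM per kb), Esrra (13.1) and Ppargc1a (11.9) through Gabpa (7.59), Tfb2m (6.26), Esrrg (5.63) and Ppara (5.54) to Ppargc1b (3.87) and Nrf1 (1.28). Between the lowest and the highest library, Mb varied 9.79-fold and Ppara 5.14-fold. The other 8 varied between 2.09-fold (Gabpa) and 3.02-fold (Esrrg). In the 12 floxed libraries, the coefficient of variation was 12.6% for Nrf1 and 12.7% for Tfam, 14.9% for Tfb2m, 21.9% for Mb and 26.6% for Ppara, the highest. The lowest count of a member in any library was 16 reads, in both Ppargc1b and Nrf1, so counting error is a larger part of the spread there than for Mb, whose lowest count was 1051.

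Mb (ENSMUSG00000018893, GRCm38 chromosome 15, 77015487 to 77050670, minus strand, protein coding) was lower in MIRKO and MIGIRKO. In both of these the insulin receptor was deleted and the FoxO genes were not. In IRlox, Mb was 1243, 1027 and 1478 CPM, and in MIRKO it was 489, 384, 453 and 249 CPM. The MIRKO libraries all lay below the IRlox libraries, with the lowest value in the library labelled MIRKO 4. Mb fell 3.17-fold in MIRKO, a log2 change of -1.67 ± 0.29 (SE; adjusted p = 0.0054, edgeR's quasi-likelihood test). With MIRKO 4 and MIGIRKO 6 both left out the change was -1.50 (adjusted p = 0.0015).

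In IRIGFRlox, Mb was 1107, 1554 and 1104 CPM. In MIGIRKO the lowest, median and highest values were 159, 201 and 490 CPM. All 6 MIGIRKO libraries lay below the controls, and the highest, 490, was the library labelled MIGIRKO 6. Mb fell 5.11-fold, a log2 change of -2.35 ± 0.26 (adjusted p = 1.6e-07), and the change was -2.67 without both doubted libraries.

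Mb did not show such a difference in the other knockouts. In IGFRlox, Mb was 1271, 672, 1019 and 1097 CPM, and in MIGF1RKO it was 1019, 734, 951, 768 and 911 CPM. These groups overlapped, and the log2 change was -0.21 ± 0.26 (95% interval -0.73 to 0.31, adjusted p = 0.87). In Qlox, Mb was 818 and 1102 CPM, and in QKO the lowest, median and highest values were 717, 978 and 1367 CPM. The QKO libraries spread to both sides of the Qlox pair, with a log2 change of 0.10 ± 0.31 (95% interval -0.54 to 0.73, adjusted p = 0.94).

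The changes themselves differed between genotypes. The Mb change in QKO minus that in MIGIRKO was 2.45 ± 0.43 on the log2 scale (adjusted p = 0.0015), and the change in MIGIRKO minus that in MIGF1RKO was -2.14 ± 0.37 (adjusted p = 0.0016). The change in MIGIRKO minus that in MIRKO was -0.69 ± 0.40 (95% interval -1.50 to 0.13, adjusted p = 0.57), which did not pass. It passed with MIRKO 4 and MIGIRKO 6 left out (-1.18, adjusted p = 0.028), where the first of these differences was 2.77 and the second -2.46. This pair holds the lowest Mb of MIRKO and the highest of MIGIRKO, so leaving it out widens the difference between the 2 changes by itself. With any single library left out it did not pass (adjusted p = 0.17 to 0.78). Compared directly across colonies, all 7 QKO libraries were above all 6 MIGIRKO libraries, by 2.06 ± 0.23 (adjusted p = 6.1e-08). In the order of group means, IRIGFRlox (1255 CPM), IRlox (1249), QKO (1026), IGFRlox (1015), Qlox (960) and MIGF1RKO (877) each overlapped the next, and MIRKO (394) and MIGIRKO (245) followed below a gap and overlapped each other.

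**Figure D2:**
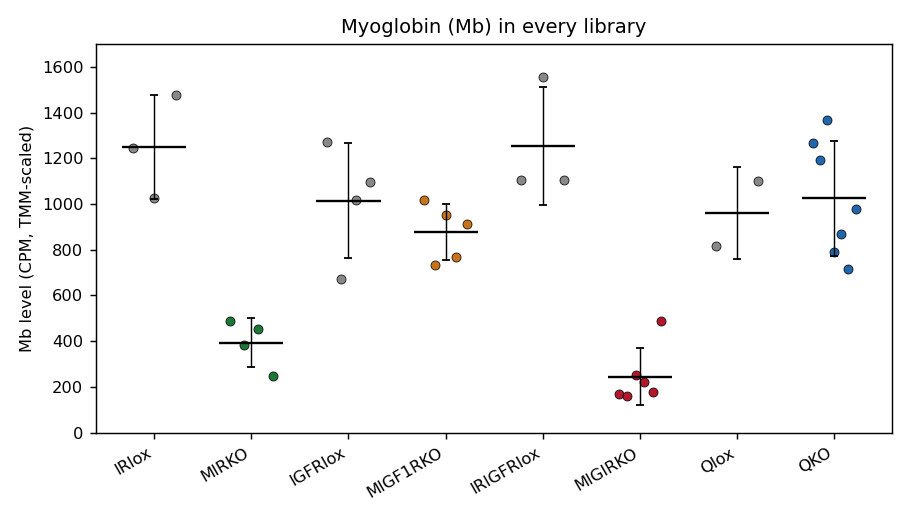
Mb level (vertical axis, CPM with scaled library totals) in every library of the 8 groups (horizontal axis). Points are libraries, bars the group mean and error bars the SD. All MIRKO (249 to 489 CPM) and MIGIRKO (159 to 490) libraries lie below all others, the lowest of which is 672.

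Libraries whose identifiers in the labels are consecutive, or nearly so (1 number is skipped in the third run), formed 6 runs, and within them the MIRKO and MIGIRKO differences kept their direction. Each run shared by a knockout and its controls held 1 library of each, so every difference is between single libraries. MIRKO and IRlox shared 1 run, that of MIRKO 1 and IRlox 2, with an Mb difference of -1.07 on the log2 scale. The other MIRKO libraries shared no run with IRlox. MIGIRKO and IRIGFRlox shared 3 runs, with differences of -2.70, -3.29 and -1.17, the last of them from the library labelled MIGIRKO 6. QKO and Qlox shared 2 runs, with differences of 0.09 and -0.62.

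Markers of other cells moved in MIGIRKO as well. Of the marker lists tested in MIGIRKO against IRIGFRlox, 8 of 11 fibre markers were called lower, beside 16.7% of all tested genes. Called higher were 7 of 8 fat cell, 10 of 10 immune, 6 of 8 Schwann cell and 6 of 8 fibroblast markers, beside 17% of all tested genes. So were 2 of 5 stem cell and 1 of 3 brown fat markers, lists too short to set against that share. In summed CPM, fat cell markers were 410 to 1497 in MIGIRKO and 274 to 651 in IRIGFRlox, immune markers 638 to 1698 and 193 to 285, Schwann cell markers 377 to 722 and 184 to 288, and fibroblast markers 4786 to 8588 and 2676 to 5934. The other floxed groups overlapped MIGIRKO in Schwann cell markers (347 to 549 in IRlox, 309 to 639 in IGFRlox, 441 to 703 in Qlox). They also overlapped it in fibroblast markers (6262 to 7460 in IRlox) and fat cell markers (634 to 1053 in Qlox). Immune markers of these groups stayed below MIGIRKO, reaching 419 in IRlox, 365 in IGFRlox and 291 in Qlox. Of 8 endothelial markers 1 was called lower, and none of 5 red blood cell markers was called. Heart muscle also expresses Mb, and its markers Nppa, Nppb and Myl7 had 6, 16 and 2 counts over all 34 libraries. Of the 2 heart markers that could be tested, 1 was called higher in MIGIRKO, again too few to set against the share of all tested genes. The heart list summed to 7.81 to 28.8 CPM in MIGIRKO and 5.35 to 9.95 in IRIGFRlox. None of these lists had a called member in MIRKO, where the fibre marker median was -0.78, the immune marker median 0.99 and immune markers summed to 575 to 1281 CPM, against 338 to 419 in IRlox. In QKO, likewise with none called, the immune marker median was 1.33 and that of Schwann cell markers -1.03. The part of these shifts in the Mb result was not tested.

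Relative to the fibre markers, Mb stayed low. This scale, chosen after the data were seen, divides Mb CPM by the summed CPM of the 12 fibre markers in the same library, which themselves fell in MIGIRKO. Over all libraries the fast-fibre genes Myh4, Tnnt3 and Actn3 made up 34.6%, 9.52% and 6.55% of that sum. Acta1 and Ttn made up 15.9% and 11.9%. A fall of fast-fibre transcripts and a fall of fibre RNA as a whole cannot be told apart on this scale. The share of all tested genes separated on it was not computed. Per 1000 CPM of fibre markers, Mb was 1.55 to 4.47 CPM in MIGIRKO and 5.43 to 7.34 in IRIGFRlox, without overlap, a log2 difference of -1.34. MIRKO libraries had 2.66 to 4.39 and IRlox libraries 5.12 to 8.54, also without overlap, a log2 difference of -1.04. QKO (4.12 to 6.42) and Qlox (4.38 to 6.15) overlapped. QKO and MIGIRKO, separate on the CPM scale, overlapped on this one, with a log2 difference of 1.19. The difference was thus smaller than on the CPM scale in both receptor knockouts, and its direction did not change.

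**Figure D3:**
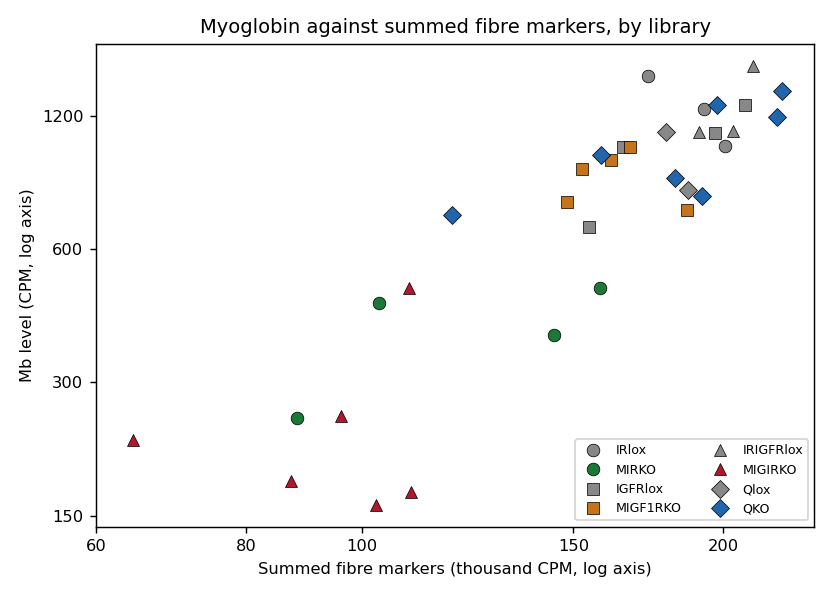
Mb level (vertical log axis, CPM) against the summed level of 12 fibre markers (horizontal log axis, in units of 1000 CPM) in each library, 1 point per library, with shape for colony, grey for floxed controls and colour for knockouts. MIGIRKO libraries have low values on both axes, and MIRKO 1, at 489 CPM of Mb, has a fibre marker sum of 157800 CPM, within the range of MIGF1RKO.

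The ERR receptors did not move together. Esrra (ENSMUSG00000024955, chromosome 19, 6910977 to 6921813, minus strand) encodes ERRα, the receptor through which PGC-1α acts on many respiratory genes. In IRIGFRlox, Esrra was 96.9, 86.5 and 68.7 CPM, and in MIGIRKO the lowest, median and highest values were 36.0, 38.3 and 59.1 CPM. All 6 MIGIRKO libraries were below the controls, and 5 of them lay between 36.0 and 39.8. Esrra fell 2.04-fold, with a log2 change of -1.03 ± 0.18 (adjusted p = 9.3e-05, or 2.0e-04 with MIRKO 4 and MIGIRKO 6 left out), although per 1000 CPM of fibre markers it was 0.348 to 0.576 CPM in MIGIRKO and 0.360 to 0.476 in IRIGFRlox, which overlapped. Of the 4 control groups, IRIGFRlox had the highest Esrra mean (84.0 CPM, against 58.5 to 68.5 in the others).

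In IRlox, Esrra was 61.6, 55.6 and 58.1 CPM, and in MIRKO it was 52.7, 36.1, 35.0 and 40.5 CPM. The groups did not overlap, but the log2 change of -0.51 ± 0.21 missed the threshold (adjusted p = 0.20). Esrra passed in MIRKO only where all 12 floxed libraries served as the control (-0.71, adjusted p = 0.0043). Per summed fibre marker the MIRKO and IRlox libraries overlapped, with a log2 difference of 0.12. In MIGF1RKO, Esrra was 58.2, 66.5, 59.4, 51.6 and 51.6 CPM, against 71.6, 51.8, 53.9 and 65.9 in IGFRlox (log2 change -0.08 ± 0.18, adjusted p = 0.95). In QKO its lowest, median and highest values were 36.9, 69.0 and 82.4 CPM, against 72.8 and 64.2 in Qlox (log2 change -0.13 ± 0.22, adjusted p = 0.86). Both of these pairs of groups overlapped.

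The Esrra change in MIGIRKO minus that in MIGF1RKO was -0.95 ± 0.26 (adjusted p = 0.024). That call was lost without IRIGFRlox 1 (adjusted p = 0.079), without IGFRlox 2 (0.051) and with library totals only (0.11). The change in QKO minus that in MIGIRKO was 0.89 ± 0.29 and missed the threshold (adjusted p = 0.066), but it passed with DESeq2 (0.040) and when MIGIRKO 2, QKO 4 or QKO 6 was left out (0.022 to 0.029). It was 0.44 with library totals only (adjusted p = 0.26) and 0.55 with the run as a block (0.21), and the adjusted p was 0.31 without Qlox 2. QKO exceeded MIGIRKO directly by 0.60 ± 0.15 (adjusted p = 0.0033), a call lost with library totals only (0.18, adjusted p = 0.26), and was lower than MIGIRKO per summed fibre marker (-0.39).

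Esrrg (ENSMUSG00000026610, chromosome 1, 187608791 to 188214885, plus strand) encodes ERRγ, a receptor enriched in oxidative fibres. In IRIGFRlox, Esrrg was 28.1, 31.2 and 34.9 CPM, and in MIGIRKO the lowest, median and highest values were 26.4, 36.8 and 62.3 CPM. The groups overlapped, with 4 of 6 MIGIRKO libraries above the controls and 1 below (log2 change 0.37 ± 0.23, adjusted p = 0.20). With library totals only, Esrrg was called higher in MIGIRKO (0.87, adjusted p = 0.0057), and per fibre marker all 6 MIGIRKO libraries lay above the controls (0.241 to 0.803 against 0.138 to 0.183 CPM per 1000). The fall of the fibre markers enters that ratio, and the share of all tested genes so separated was not computed. QKO, at 20.6, 29.6 and 38.3 CPM (lowest, median and highest), was called below MIGIRKO by -0.46 ± 0.18 (adjusted p = 0.048). That call was lost under 5 of the other settings (adjusted p = 0.0525 to 0.12) and without any 1 of MIGIRKO 2, MIGIRKO 3, MIGIRKO 4, QKO 2, QKO 3 or QKO 4 (0.059 to 0.20). In MIRKO, MIGF1RKO and QKO, Esrrg changed by 0.19, -0.02 and 0.07, none of which passed.

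The coactivators and PPARα showed no call against their own controls. Ppargc1a (ENSMUSG00000029167, chromosome 5, 51454250 to 51567726, minus strand) encodes PGC-1α. In IRIGFRlox, Ppargc1a was 66.3, 67.4 and 86.6 CPM, and in MIGIRKO its lowest, median and highest values were 47.9, 71.7 and 104 CPM. The MIGIRKO libraries spread to both sides of the controls, 2 above and 2 below, with a log2 change of 0.00 ± 0.24 (95% interval -0.49 to 0.50, adjusted p = 1.00). In IRlox, Ppargc1a was 96.9, 56.2 and 56.0 CPM, and in MIRKO it was 64.3, 84.5, 58.5 and 129 CPM, the last in the library labelled MIRKO 4. These groups also overlapped (log2 change 0.28 ± 0.26, adjusted p = 0.62). The changes in MIGF1RKO (0.02 ± 0.23) and QKO (-0.01 ± 0.28) were close to 0, and all 8 group means lay between 69.7 and 88.4 CPM.

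Ppargc1b (ENSMUSG00000033871) encodes PGC-1β and was lower in abundance, with group means from 11.3 CPM in Qlox to 22.2 CPM in IRlox. In IRIGFRlox, Ppargc1b was 16.9, 15.3 and 19.5 CPM, and in MIGIRKO its lowest, median and highest values were 9.15, 14.8 and 20.1 CPM, with overlap (log2 change -0.26 ± 0.20, adjusted p = 0.33). Its sign turned on unadjusted totals (0.25, adjusted p = 0.35). In Qlox it was 10.5 and 12.2 CPM, and in QKO its lowest, median and highest values were 11.6, 13.5 and 18.2 CPM. Here 5 of 7 QKO libraries were above both controls, with a log2 change of 0.35 ± 0.25 that did not pass (adjusted p = 0.61). The changes in MIRKO (-0.25 ± 0.21) and MIGF1RKO (-0.16 ± 0.20) did not pass either.

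Ppara (ENSMUSG00000022383, chromosome 15, 85734983 to 85802819, plus strand) encodes PPARα, a receptor for fatty acids that drives their oxidation. In IRlox, Ppara was 29.3, 18.5 and 18.6 CPM, and in MIRKO it was 9.02, 9.66, 16.2 and 21.2 CPM. Of the MIRKO libraries, 3 of 4 were below all IRlox libraries, with a log2 change of -0.63 ± 0.33 (adjusted p = 0.32). In IRIGFRlox it was 25.0, 26.2 and 14.8 CPM, and in MIGIRKO its lowest, median and highest values were 10.6, 15.0 and 20.5 CPM. Those groups overlapped, with IRIGFRlox 3 among the MIGIRKO values (log2 change -0.55 ± 0.29, adjusted p = 0.15). In QKO Ppara ranged from 7.76 to 28.7 CPM around a median of 21.3, against 25.6 and 31.2 in Qlox (log2 change -0.46 ± 0.34, adjusted p = 0.63). With all 12 floxed libraries as control, Ppara was called lower in MIRKO (-0.84, adjusted p = 0.018) and MIGIRKO (-0.76, adjusted p = 0.0045), while its change in MIGF1RKO was -0.12 ± 0.28 against its own controls (adjusted p = 0.95).

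Neither nuclear respiratory factor was called against its own controls. Nrf1 (ENSMUSG00000058440, chromosome 6, 30047988 to 30153458, plus strand) was 16.3, 15.3 and 14.1 CPM in IRIGFRlox and 13.5, 15.0 and 17.7 CPM (lowest, median and highest) in MIGIRKO. These groups overlapped, with a log2 change of 0.02 ± 0.20 (95% interval -0.39 to 0.44, adjusted p = 0.94). On unadjusted totals the change was 0.52 (adjusted p = 0.0745), and per 1000 CPM of fibre markers all 6 MIGIRKO libraries lay above the controls (0.133 to 0.268 against 0.0724 to 0.0802 CPM). The fall of the fibre markers enters that ratio, and the share of all tested genes so separated was not computed. In MIRKO, MIGF1RKO and QKO the Nrf1 changes were 0.15 ± 0.23, -0.13 ± 0.20 and 0.09 ± 0.25, none of which passed. In QKO, 6 of 7 libraries lay between 9.93 and 12.9 CPM, below every MIGIRKO library, and QKO 6 was at 22.2 CPM. Without QKO 6, Nrf1 was called lower in QKO than in MIGIRKO (-0.46, adjusted p = 0.013), and with it the difference of -0.25 ± 0.16 missed the threshold (adjusted p = 0.27).

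Gabpa (ENSMUSG00000008976, chromosome 16, 84834925 to 84863779, plus strand) encodes the DNA-binding subunit of the ETS factor GABP. In IRIGFRlox, Gabpa was 44.3, 38.5 and 57.3 CPM, and in MIGIRKO its lowest, median and highest values were 29.5, 35.3 and 51.6 CPM. Of the MIGIRKO libraries, 5 of 6 were below all controls, and the exception at 51.6 was the library labelled MIGIRKO 6. The log2 change of -0.36 ± 0.17 did not pass (adjusted p = 0.097), but passed without that library (-0.48, adjusted p = 0.018). Its sign turned with library totals only (0.14, adjusted p = 0.56) and per summed fibre marker (0.75, groups overlapping). Gabpa changed by -0.23 ± 0.18 in MIRKO, -0.18 ± 0.16 in MIGF1RKO and -0.01 ± 0.20 in QKO, without a call.

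Of the factors of mitochondrial DNA transcription, Tfb2m was called lower in MIGIRKO and Tfam was not. Tfam (ENSMUSG00000003923, chromosome 10, 71225464 to 71238280, minus strand) coats mitochondrial DNA and bends its promoters. In IRIGFRlox, Tfam was 62.0, 60.5 and 68.2 CPM, and in MIGIRKO its lowest, median and highest values were 47.0, 48.4 and 55.1 CPM. All 6 MIGIRKO libraries were below the controls, but the log2 change of -0.36 ± 0.17 missed the threshold in the fit to all groups (adjusted p = 0.094). Tfam passed in the fit to the compared groups alone (-0.37, adjusted p = 0.029). Its sign turned with library totals only (0.14, adjusted p = 0.45), and per fibre marker it was higher in all 6 MIGIRKO libraries than in the controls (0.444 to 0.855 against 0.286 to 0.358 CPM per 1000). The fall of the fibre markers enters that ratio, and the share of all tested genes so separated was not computed. In MIRKO Tfam was 76.6, 65.4, 49.8 and 41.1 CPM, against 75.9, 70.8 and 63.6 in IRlox, with overlap (log2 change -0.27 ± 0.18, adjusted p = 0.45). The changes in MIGF1RKO (0.01 ± 0.16) and QKO (-0.09 ± 0.19) did not pass.

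Tfb2m (ENSMUSG00000026492, chromosome 1, 179528055 to 179546267, minus strand) opens mitochondrial promoters for the polymerase. In IRIGFRlox, Tfb2m was 25.2, 21.2 and 21.6 CPM, and in MIGIRKO its lowest, median and highest values were 8.96, 14.0 and 17.1 CPM. All 6 MIGIRKO libraries were below the controls. Tfb2m fell 1.68-fold, a log2 change of -0.75 ± 0.16 (adjusted p = 7.7e-04, or 0.00085 with MIRKO 4 and MIGIRKO 6 left out), a call lost with library totals only (-0.26, adjusted p = 0.15), and its direction turned per summed fibre marker (0.34, groups overlapping).

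In IRlox, Tfb2m was 19.7, 21.2 and 21.3 CPM, and in MIRKO it was 12.7, 13.8, 15.1 and 11.3 CPM. The groups did not overlap, and the log2 change of -0.65 ± 0.18 was just short of the threshold (adjusted p = 0.067) and past it with DESeq2 (0.044). With library totals only the change was -0.39 (adjusted p = 0.15), and per summed fibre marker the groups overlapped (-0.0043). In MIGF1RKO all 5 libraries lay between 16.7 and 18.1 CPM, inside the IGFRlox range of 14.3 to 21.9 (log2 change -0.13 ± 0.16, adjusted p = 0.88). In QKO the lowest, median and highest values were 13.4, 21.3 and 23.4 CPM, against 17.1 and 15.8 in Qlox. Here 6 of 7 QKO libraries were above both controls and QKO 6 was below them (log2 change 0.29 ± 0.20, adjusted p = 0.60).

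The Tfb2m change in QKO minus that in MIGIRKO was 1.04 ± 0.26 (adjusted p = 0.018). That call was lost without IRIGFRlox 1 (adjusted p = 0.052), Qlox 1 (0.093) or Qlox 2 (0.15), with the library run as a block (0.073), with the compared groups only (0.058) and with library totals only (0.098). The change in MIGIRKO minus that in MIGF1RKO was -0.62 ± 0.23 and did not pass (adjusted p = 0.086). Directly, QKO exceeded MIGIRKO by 0.57 ± 0.14 (adjusted p = 0.0016), a call lost with library totals only (0.17, adjusted p = 0.25), and the sign turned per summed fibre marker (-0.37).

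**Figure D4:**
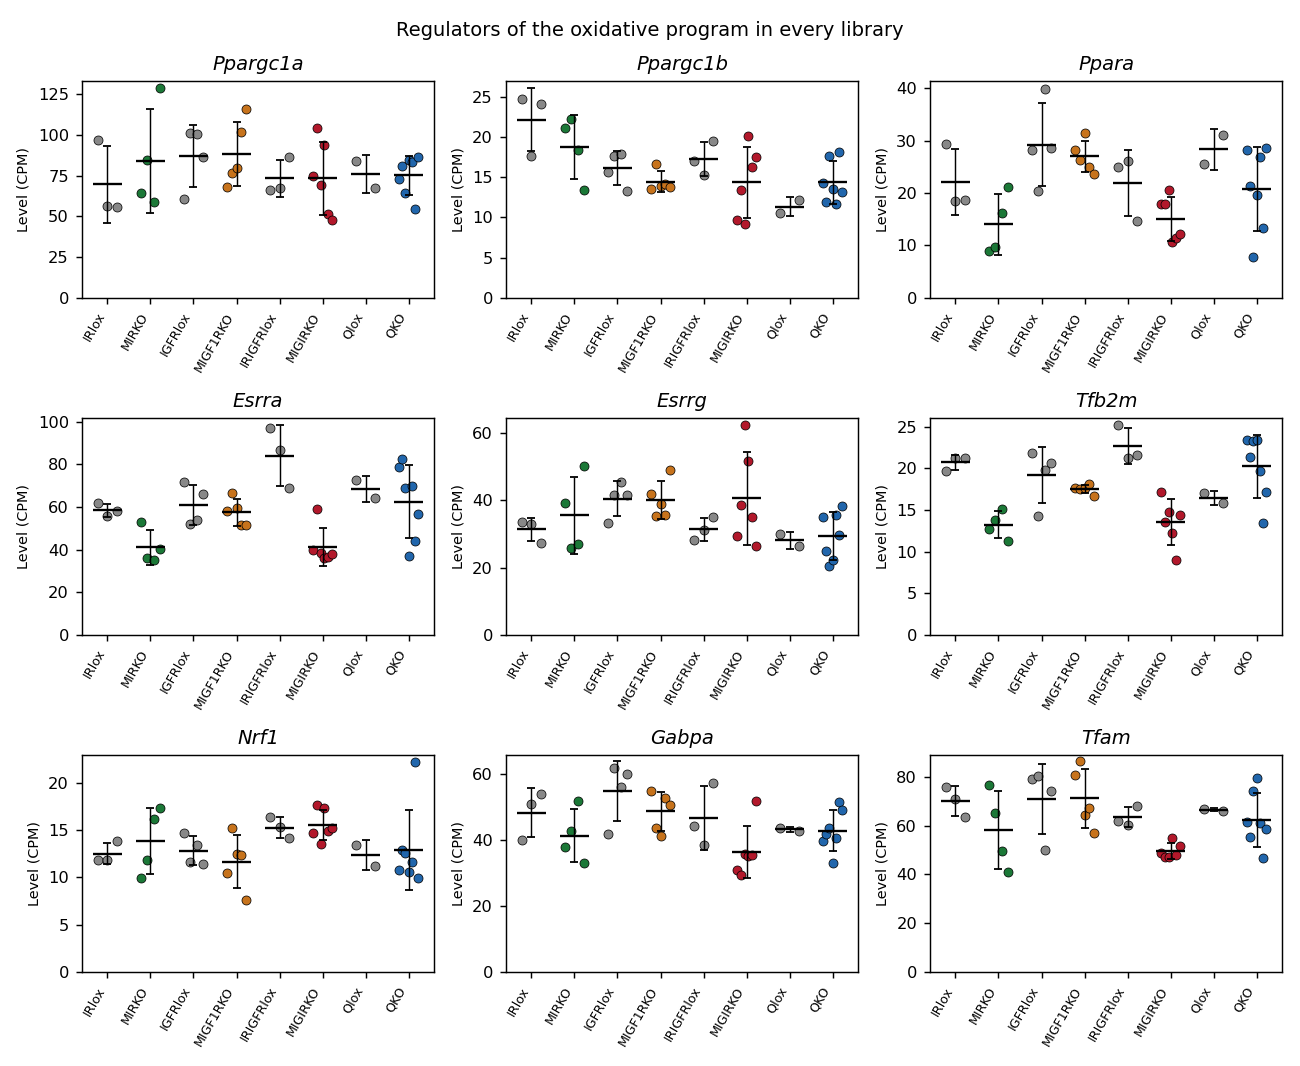
Level (vertical axes, CPM) of the 9 regulators (panels) in every library of the 8 groups (horizontal axes). Points are libraries, bars group means and error bars the SD. Esrra lies at 36.0 to 59.1 in MIGIRKO, below the IRIGFRlox libraries (68.7 to 96.9), as does Tfb2m (8.96 to 17.1 against 21.2 to 25.2), and Ppargc1a overlaps its controls in every colony. Per summed fibre marker neither Esrra nor Tfb2m is lower in MIGIRKO.

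The difference tests over all 10 members were few in number. For the QKO change minus the MIGIRKO change, 2 of 10 members were called, both higher (Mb and Tfb2m), with 5.76% of tested genes called, 3.61% higher and 2.15% lower (62.7% of the calls higher, against 11.8% on unadjusted totals). For the MIGIRKO change minus the MIGF1RKO change, 2 were called, both lower (Mb and Esrra), with 8.58% of tested genes called, 3.67% higher and 4.91% lower (42.8% of the calls higher, against 90.5% on unadjusted totals). These 2 tests share the MIGIRKO and IRIGFRlox libraries. For the MIGIRKO change minus the MIRKO change no member was called, and 0% of tested genes were called by edgeR (39 by DESeq2), with 1421 at an unadjusted p under 0.05. With MIRKO 4 and MIGIRKO 6 left out, 1 member (Mb) and 457 genes were called there, against 145 genes without MIRKO 4 alone and 13 without MIGIRKO 6 alone. In QKO against MIGIRKO, 3 members were called higher and 1 lower, with 30.2% of tested genes called, 16.2% higher and 14% lower. On unadjusted totals, 11.3% of the calls there were higher, against 53.5%, and the members called were Mb (higher) and Esrrg and Nrf1 (lower). With MIRKO 4 and MIGIRKO 6 left out and the main scaling, 6 members and 4257 genes in all were called. The members added were Gabpa (0.37, adjusted p = 0.024) and Tfam (0.34, adjusted p = 0.048). Of the 10, Mb alone was separated, upward, as were 4.88% of tested genes (2.53% downward).

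The other genes of the pathway were followed through 6 lists with 115 genes. Of 16 textbook targets of ERR and PGC-1, most of them enzymes of the citric acid cycle, respiratory chain and energy transfer, all 16 were called lower in MIGIRKO, with a median log2 change of -0.86 against 0.04 over all tested genes, of which 16.7% were called lower. With library totals only, 8 of the 16 were called lower, beside 688 of the 13646 tested genes. Among the 16, Ndufs1, a core subunit of complex I, was 532 ± 25.7 CPM (SD, n = 3) in IRIGFRlox and 284 ± 16.1 (n = 6) in MIGIRKO, a log2 change of -0.91 ± 0.12. Acsl6, a fatty acid ligase, was 45.3 ± 6.10 and 9.48 ± 4.82 CPM (-2.25 ± 0.30). The fibre markers tested in the same comparison had a median log2 change of -1.17. The 6 lists were not put on the scale per summed fibre marker, so a fall relative to the fibre markers was not tested. In MIRKO 4 of the 16 were called lower (Cox5a, Mdh2, Ckmt2 and Ndufs1), beside 0.865% of all tested genes, with a median of -0.51 for the 16. An unadjusted p under 0.05 was found for 13 of the 16, beside 2345 of the 13646 tested genes. The calls of Cox5a (-0.83 ± 0.20) and Mdh2 (-0.74 ± 0.19) in MIRKO were lost in the fit to the compared groups alone and with MIRKO 4 and MIGIRKO 6 left out (adjusted p = 0.12 to 0.15). Each was also lost without any 1 of IRlox 1, IRlox 2, MIRKO 3 or MIRKO 4, and Mdh2 without IRlox 3. None of the coregulators, other factors, mitochondrial DNA factors or PPAR targets was called in MIRKO, with 7, 7, 3 and 5 of them at an unadjusted p under 0.05. Of the 16 ERR and PGC-1 targets, none was called by edgeR in MIGF1RKO or QKO, with 1 and 3 at an unadjusted p under 0.05. Of the 13646 tested genes, 1427 and 1579 had such a p there.

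Of 21 coregulators and signalling inputs, 12 were called lower and 1 higher in MIGIRKO, where 16.7% of all tested genes were called lower and 17% higher. Prkab2 and Prkag3, subunits of the energy sensor AMPK, changed by -1.72 ± 0.24 and -1.68 ± 0.27, and Camk2b, a calcium-dependent kinase, by -0.94 ± 0.15. Prkaa1, a catalytic subunit of AMPK, rose by 0.60 ± 0.16 (adjusted p = 0.0048), a call lost without IRIGFRlox 1 (0.051). Of 22 other transcription factors, 8 were called lower and 1 higher, beside the same 16.7% and 17% of all tested genes. Rxrg, a partner receptor of the PPARs, was 75.3 ± 9.28 CPM in IRIGFRlox and 11.2 ± 6.81 in MIGIRKO (-2.74 ± 0.34), Esrrb, the third ERR, changed by -2.22 ± 0.34 and Mef2c, a muscle transcription factor, was 779 ± 147 CPM in IRIGFRlox and 391 ± 79.5 in MIGIRKO. Pparg, the PPAR of fat cells, rose by 1.57 ± 0.36 (adjusted p = 0.0011), in libraries in which 7 of 8 fat cell markers were also called higher.

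Of 17 tested factors that copy, transcribe or keep mitochondrial DNA and its RNA, 6 were called lower and 1 higher in MIGIRKO (median -0.34), beside 16.7% and 17% of all tested genes. Top1mt, the mitochondrial topoisomerase, changed by -1.03 ± 0.22, and Lrpprc, which stabilises mitochondrial mRNA, and Lonp1, a matrix protease, by -0.69 ± 0.14 and -0.80 ± 0.19. The calls of Lrpprc and Lonp1 were lost with library totals only (adjusted p = 0.23 and 0.13). Dna2, a nuclease and helicase, rose by 2.00 ± 0.57, from 1.14 ± 0.25 to 4.68 ± 2.05 CPM.

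Of 20 PPAR targets, 4 were called lower and 3 higher in MIGIRKO (median -0.17), near the 16.7% and 17% of all tested genes. The lower ones were Slc25a20, the mitochondrial carrier of acylcarnitine (-0.71 ± 0.16), Hadha (-0.53 ± 0.13) and Acadm (-0.48 ± 0.14), both of fatty acid oxidation, and Acadvl. With library totals only, the Slc25a20 and Hadha calls were lost and Acadm lay at 0.01 (adjusted p = 0.97). Acadm also lost its call without IRIGFRlox 3 (-0.24, adjusted p = 0.21). Among the higher ones were Cpt1a (1.08 ± 0.31), the fatty acid gate of liver and other non-muscle cells, and Angptl4 (2.04 ± 0.59), an inhibitor of lipoprotein lipase. The calls of Cpt1a and Angptl4 were lost without IRIGFRlox 3 (adjusted p = 0.063 and 0.058).

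Of 16 tested slow-fibre, oxygen and haem genes, 5 were called lower and 3 higher in MIGIRKO (median -0.52), beside 16.7% and 17% of all tested genes. Alas1, which starts haem synthesis, was 242 ± 64.5 CPM in IRIGFRlox and 128 ± 23.5 in MIGIRKO (-0.92 ± 0.21), and Tfrc, the receptor that brings iron into cells, was 262 ± 94.2 and 110 ± 50.2 CPM (-1.24 ± 0.28). The slow myosin light chains Myl2 and Myl3 changed by -2.04 ± 0.61 and -2.26 ± 0.70, and the slow myosin heavy chain Myh7, at -0.58 ± 0.33, was not called (adjusted p = 0.17). Myh7b, a minor slow myosin, was called lower (-1.07 ± 0.27), which was lost without IRIGFRlox 2 (adjusted p = 0.094) and with library totals only (0.080). Cygb, cytoglobin, a globin of fibroblasts and other cells, rose by 1.04 ± 0.20, Casq2, the calcium-binding protein of slow and heart muscle, by 1.87 ± 0.34 and Hmox1, which degrades haem, by 1.23 ± 0.47. The Hmox1 call was lost without MIGIRKO 6 (0.75, adjusted p = 0.15), and also without any 1 of the IRIGFRlox libraries (0.080 to 0.14). Alas1 was the only gene of this list called in MIRKO (-1.01 ± 0.23, adjusted p = 0.029), a call lost with MIRKO 4 and MIGIRKO 6 left out (0.11) and without any 1 of IRlox 1, IRlox 2, MIRKO 3 or MIRKO 4 (0.065 to 0.19).

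No gene of the other 5 lists was called by edgeR in MIGF1RKO or QKO either. In QKO the slow-fibre list had a median of 0.87 and 7 of 16 genes at an unadjusted p under 0.05, beside 1579 of the 13646 tested genes. Among the 7 were Myh7 (1.28 ± 0.42, adjusted p = 0.21) and Tnnc1 (1.69 ± 0.59, adjusted p = 0.25), while Mb had a change of 0.10. In the test of the QKO change minus the MIGIRKO change, the numbers called higher were 9 of 16 ERR and PGC-1 targets, 3 of 21 coregulators (Camk2b, Prkag3 and Perm1), 3 of 22 factors (Rxrg, Esrrb and Mef2c), 1 of 17 mitochondrial DNA factors (Top1mt) and 5 of 16 slow-fibre, oxygen and haem genes, beside 3.61% of all tested genes. The count of ERR and PGC-1 targets was 0 without Qlox 1 or without Qlox 2, 1 with library totals only (beside 166 of the 13646 tested genes called higher) and 5 with the run as a block. No PPAR target was called there, and Cygb was the only gene of the lists called lower (-1.12 ± 0.31). Among the ERR and PGC-1 targets, the differences with the smallest adjusted p were those of Acsl6 (2.11 ± 0.48), Mdh2 (1.08 ± 0.27) and Cs, citrate synthase (0.73 ± 0.18). Many of these calls rest on both Qlox libraries: those of Rxrg, Acsl6, Mdh2, Cs, Tfrc, Prkag3, Perm1, Atp2a2, Myh7b and Top1mt were lost when either was left out, that of Esrrb without Qlox 1, and those of Mef2c and Cygb without Qlox 2. In the change in MIGIRKO minus that in MIGF1RKO, 9 of 16 ERR and PGC-1 targets, 6 of 21 coregulators, 5 of 22 factors and 3 of 17 mitochondrial DNA factors were called lower, beside 4.91% of all tested genes. The count of ERR and PGC-1 targets there was 3 with library totals only (beside 205 of the 13646 tested genes called lower), and 5 without IRIGFRlox 2 or without IRIGFRlox 3.

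**Figure D5:**
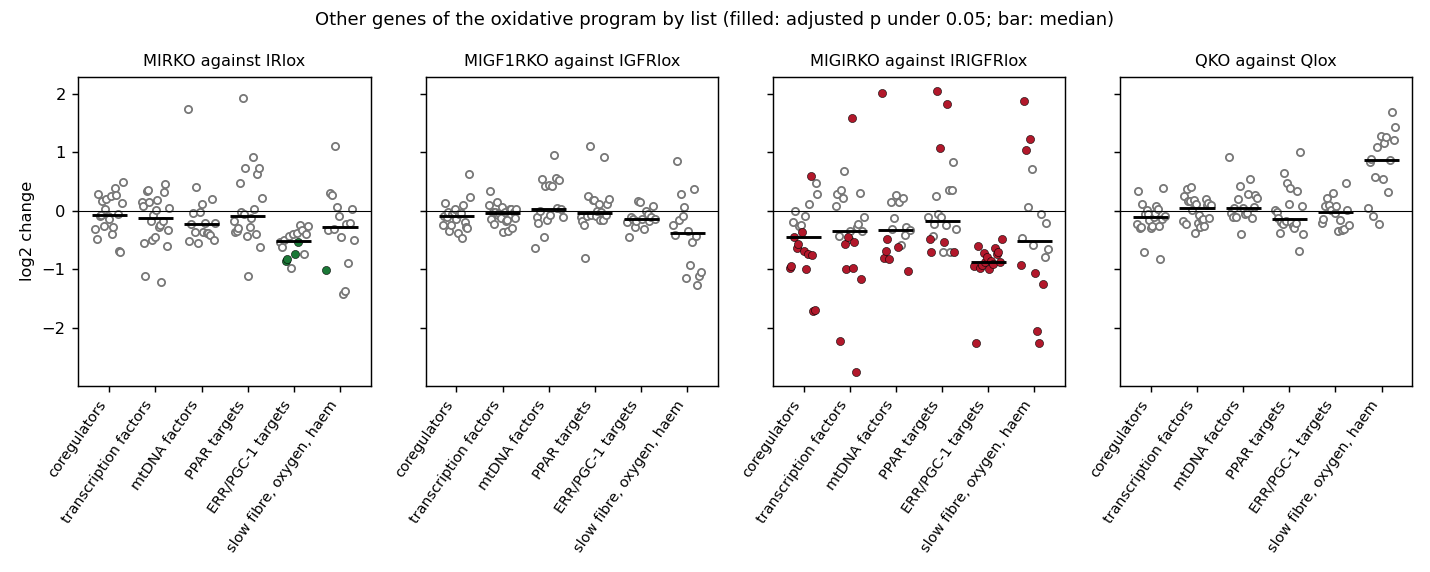
Log2 change from the floxed controls (vertical axis) of the genes in 6 lists (horizontal axis) in MIRKO, MIGF1RKO, MIGIRKO and QKO (panels). Each point is a gene, filled at an adjusted p under 0.05, and the bar is the list's median, which for the ERR and PGC-1 targets is -0.86 in MIGIRKO with 16 of 16 filled. The fibre markers, not shown, had a median of -1.17 in MIGIRKO.

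The members' patterns over the libraries were compared as a description. Over the 8 group means of log2 CPM, Mb and Tfb2m had r = 0.91, Mb and Tfam 0.88, Mb and Esrra 0.87, and Mb and Ppargc1a 0.04. Within groups, over the 34 libraries with group means removed, the same pairs had r = 0.41, 0.19, 0.24 and -0.50. Among 8694 other genes with a mean log2 CPM of at least 3, those most like Mb over the 34 libraries were Stau2, Ptpn3, Kcng4, Fndc5 and Fzd9 (r = 0.93 to 0.94, and 0.54 to 0.82 within groups). Ppargc1a had no neighbours so close over the 34 libraries. The nearest were Uhrf1bp1, Ank3, Tsg101, Npepps and Serinc1 (r = 0.60 to 0.65, and 0.56 to 0.74 within groups, a range near that of Mb). Those nearest to Ppara were Cep85l, Fam214a, Mn1, Foxn3 and Pde4d (r = 0.69 to 0.79, and 0.47 to 0.67 within groups). The libraries share groups, runs and the fibre marker shift, so these values are not independent of the group differences above.

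The annotation places other genes across some members. Mb overlaps Apol6 on the other strand (46 to 301 counts per library, against at least 1051 for Mb), Esrra overlaps the end of Trmt112 by 73 bases (7 to 76 counts) and Gabpa overlaps Atp5j by 701 bases (242 to 1520 counts). The libraries were made with a directional kit, but the strand setting of the counting is not given in the sources used here, so a share of reads from these partners could not be separated. Tfb2m has a processed pseudogene, Gm15480, within its bounds, with at most 2 counts in any library.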

How the data were processed

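Muscle RNA of 34 libraries in 8 groups was sequenced with a directional kit, per the labels' protocols. The authors deposited raw counts per Ensembl gene, made with STAR and featureCounts on GRCm38.p4 per the submitters' processing notes. Tool versions, the annotation release and the strand setting are not given in the sources used here. Groups came from the labels, and all value columns were used. Symbols, positions and exon lengths came from the GENCODE annotation of GRCm38, in which 45229 of 46071 identifiers had a symbol, and promoters from RefSeq (GRCm38.p6).

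Counts were tested in R 4.3.3 with edgeR 4.0.16: filterByExpr kept 13646 genes, library totals were scaled by trimmed means of M values (TMM), and the robust quasi-likelihood model held the 34 libraries, with a mean for each of the 8 groups. Every adjusted p without another tool's name is from edgeR's quasi-likelihood test with Benjamini-Hochberg adjustment over all tested genes, and a gene was called under 0.05. The 9 comparisons were the 4 knockouts against their floxed controls, 3 differences between such changes, QKO against MIGIRKO, and the floxed groups. SE is the size of the log2 change over the square root of F. CPM values use scaled totals.

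The members and lists were chosen with earlier results of these data known. The text names all members, the targeted genes, up to 3 called genes of each list and direction with the smallest adjusted p in MIGIRKO and in the QKO minus MIGIRKO change (2 elsewhere), and the 5 genes most like Mb, Ppargc1a and Ppara. Ckmt2 and Ndufs1 in MIRKO, and Acadvl, Myl2, Myl3, Myh7 and Tnnc1, were named after their values were seen. Some genes that the rule names are not reported here. Alternatives were DESeq2 1.42.0, limma-voom (limma 3.58.1), other size factors, library totals only, other filters, the library run as a block, the compared groups alone, all 12 floxed libraries as control, and leaving out libraries. The scale per summed fibre marker was chosen after the data were seen. The fit was tested on simulated data. Tables and figures used the package data.table (1.17.8), Python 3.11.15, numpy 2.4.6, pandas 2.3.3 and matplotlib 3.10.9.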

Additional observations from a re-analysis of the deposited data

Results flagged for a closer look

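In groups of 4 to 10 libraries, the gap between the extreme library and the nearest of the others was compared with the range of the group. Of 50 such groups, 5 had a library standing apart by Dixon's 95% critical value, where chance gives about 1 in 20. Mb was 490 CPM in the library labelled MIGIRKO 6, and 159 to 252 in the other MIGIRKO libraries. The same library had Gabpa at 51.6 CPM, against 29.5 to 35.8 in the rest of its group. Esrra was 59.1 CPM in MIGIRKO 2, against 36.0 to 39.8 in the other 5. Nrf1 was 22.2 CPM in QKO 6, the QKO library with the lowest fibre marker sum (118800 CPM), against 9.93 to 12.9 in the other 6. Ppargc1b was 16.7 CPM in MIGF1RKO 2, against 13.5 to 14.1 in the other 4.

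Some changes differed between genotypes by the test of the difference itself. The change in QKO minus that in MIGIRKO was 2.45 for Mb and 1.04 for Tfb2m on the log2 scale. The change in MIGIRKO minus that in MIGF1RKO was -2.14 for Mb and -0.95 for Esrra. The MIGIRKO and IRIGFRlox libraries enter both tests.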

How the results depend on the processing

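The number of members called moved from 1 to 2 in MIRKO with DESeq2. With all 12 floxed libraries as control it was 4 in MIRKO and 6 in MIGIRKO. Under that setting the genes called in all also rose, from 170 to 2778 in MIRKO and from 4603 to 6048 in MIGIRKO. For the QKO change minus the MIGIRKO change it was 1 in place of 2 with library totals only, with the library run as a block and with the compared groups only, and 1 to 3 when single libraries were left out. For the MIGIRKO change minus the MIGF1RKO change it was 1 with library totals only and 1 to 2 when single libraries were left out. For the MIGIRKO change minus the MIRKO change it was 1 with MIRKO 4 and MIGIRKO 6 left out. Among called changes, signs turned for Acadm in MIGIRKO with library totals only (0.0069) and, per summed fibre marker, for Esrra (0.0776) and Tfb2m (0.34) in MIGIRKO and for Esrra (-0.39) and Tfb2m (-0.37) in QKO against MIGIRKO. Among changes that were not called, signs in MIGIRKO turned with library totals only for, among others, Gabpa (0.14), Tfam (0.14) and Ppargc1b (0.25). Per summed fibre marker they turned for, among others, Gabpa (0.75), Tfam (0.75), Ppara (0.56) and Ppargc1b (0.80) in MIGIRKO, and in QKO against MIGIRKO for Gabpa (-0.71), Tfam (-0.64), Ppara (-0.56), Ppargc1a (-0.88) and Ppargc1b (-0.92). The TMM factors that scale library totals averaged 1.23 in MIGIRKO, 0.876 in IRIGFRlox and 0.94 in QKO. The summed fibre markers were themselves lower in MIGIRKO than in IRIGFRlox. The cause of the turned signs was not tested.

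With library totals only, the median log2 change of all tested genes was 0.30 in MIRKO, 0.53 in MIGIRKO and -0.41 in QKO against MIGIRKO. Against that shift, Mb was still called lower in MIRKO (-1.42, adjusted p = 0.019) and MIGIRKO (-1.86, adjusted p = 4.2e-06). Mb kept its direction and its call in MIRKO and MIGIRKO under every alternative that was tested. Genes called in all moved by more than 1.5 times as follows. In MIRKO, 170 became 371 (DESeq2), 102 (no filter), 74 (run block), 9 (compared groups only), 279 (library totals), 2778 (12 floxed controls) and 33 (MIRKO 4 and MIGIRKO 6 left out), and 13 to 368 without single libraries. In MIGF1RKO, 84 became 144 (DESeq2), 176 (compared groups only), 239 (12 floxed controls) and 164 (that pair left out), and 30 at the lowest without a single library. In QKO, 69 became 142, 41, 1052 and 135 under the same settings, and 22 and 21 without Qlox 1 and Qlox 2. In MIGIRKO, 4603 became 7002, and in QKO against MIGIRKO 4116 became 6649, with library totals only. For the QKO change minus the MIGIRKO change, 786 became 1404 (library totals), 498 (no filter), 502 (compared groups only), 1342 (that pair left out), 1352 (QKO 5 and QKO 6 left out), and 113 to 1384 without single libraries, the lowest without Qlox 2. For the MIGIRKO change minus the MIGF1RKO change, 1171 became 2167 (library totals), 668 (no filter), and 585 and 612 without IRIGFRlox 1 and IRIGFRlox 3. For the MIGIRKO change minus the MIRKO change, 0 became 39 (DESeq2), 457 (that pair left out), 145 (without MIRKO 4) and 13 (without MIGIRKO 6). Between the floxed groups, 36 became 119 (compared groups only) and 15 to 21 without some single libraries. No paired analysis was possible because the numbers in the labels only count libraries and tie no knockout mouse to a control littermate. The lowest counts of Ppargc1b and Nrf1, 16 reads, limit what could be detected for them.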
